A study of Mus musculus with 24 samples.

Results

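The comparison set 3 arrays of untreated MuRF1 knockout mice against 3 arrays of untreated wild-type mice of the 14-day arm, 6 of the 24 arrays of the series. It was described across every gene that the arrays detected. All animals were 4-month-old C57/Bl6 mice, and RNA came from the triceps surae, the calf muscle group. The untreated mice of both genotypes were littermates kept alongside others that drank dexamethasone, a synthetic glucocorticoid, at 3 mg/kg, so that "14-day" names the arm and not a treatment. The other 3 arms, with 6 arrays each, were the untreated mice of the 3-day arm and the mice treated for 3 or 14 days. The labels do not give the design of the knockout allele, the sex of the mice or the hour of harvest. They name separate samples but do not say whether each came from its own animal, so a p-value reflects only how far these samples scatter, and that scatter could be technical.

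MuRF1, the product of Trim63, is a RING-finger ubiquitin ligase found almost only in striated muscle, where it binds titin at the M-band and marks thick filament proteins for the proteasome. It rises in muscle that is wasting and is low in resting muscle. The untreated comparison therefore asks what loss of the ligase is accompanied by in muscle that has not been made to waste.

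Each of the 6 arrays detected 32.6% to 34.2% of its probes at a detection p under 0.05, with a median probe signal of 81.0 to 100.4. Log2 signals correlated at 0.970 to 0.990 among the knockout arrays, 0.984 to 0.990 among the wild-type arrays and 0.974 to 0.984 between genotypes. On the first principal component of the 6 arrays (42.8% of their variance), the scores set knockout replicate 1, at -17.2, beside the wild-type arrays, at -17.0 to -11.5, and apart from knockout replicates 2 and 3, at 35.3 and 23.5. On the second (22.1%) that array scored -28.0, knockout replicates 2 and 3 scored 2.3 and -6.2, and the wild-type arrays 2.4, 6.9 and 22.6. Counts are therefore given with and without knockout replicate 1. Muscle fibre markers such as Acta1, Ckm and Tnnt3 were detected on all 6 arrays, and the summed log2 level of the 11 measured markers lay between 17.4 and 17.6 in both genotypes.

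Few genes passed the adjusted threshold, while 1681 features had an unadjusted p under 0.05 in limma's test. A feature that did not pass is not thereby shown to be the same in both genotypes. Of 16262 features tested, 57 (0.351%) passed an adjusted p of 0.05, 23 of them higher in the knockout (0.141%) and 34 lower (0.209%). Of the 57, 44 were named genes, 20 higher and 24 lower, and the rest were probes without a symbol in the annotation. At least a 2-fold difference was reached by 13 of the higher and 25 of the lower features. The knockout and wild-type arrays did not overlap for any of the 57, which was the case for 13.9% of all features, 8.62% higher and 5.25% lower. Leaving out knockout replicate 1 brought the count to 159, with 72 higher and 87 lower, and 3 of the 57 (Agtrap, Ankrd1 and Gatad2a) lost their call. Without knockout replicate 3 the count was 35, and without 1 array of another arm, knockout replicate 3 of the 3-day dexamethasone group, it was 87. Of the 57 features, 32 passed whichever of the 7 arrays tried was left out.

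**Figure D1:**
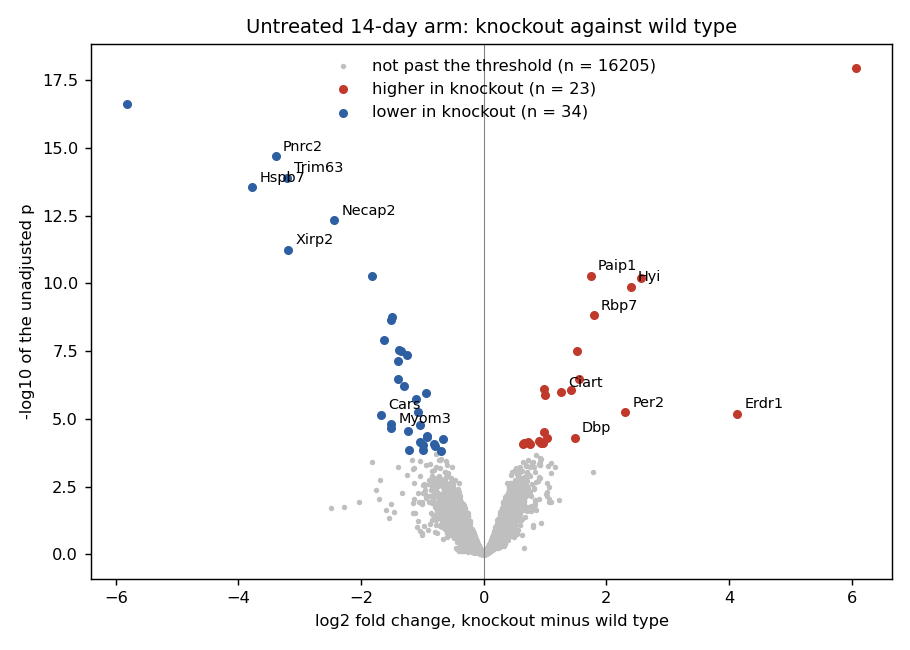
Each point is 1 of the 16262 features. The x axis is the log2 fold change of knockout minus wild type in the untreated 14-day arm and the y axis is minus log10 of the unadjusted p. The 23 higher features are red, the 34 lower are blue, and the unlabelled points at 6.07 and -5.82 are probes without a gene symbol.

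Trim63 checked the labels. Its single probe read 4.46, 5.16 and 5.01 on the log2 scale in the knockout and 8.10, 8.10 and 8.07 in the wild type. The knockout arrays lay far below the wild-type arrays, and the probe was still detected on 2 of the 3. The difference was -3.21 (SE 0.19, adjusted p = 5.03e-11), or 9.25-fold. In the other arms the same difference was -3.88 (untreated 3-day), -4.88 (dexamethasone 3-day) and -5.08 (dexamethasone 14-day). Wild-type Trim63 averaged 8.09 here, 8.53 in the untreated 3-day arm, and 9.63 and 9.72 after 3 and 14 days of dexamethasone. The knockout averaged between 4.64 and 4.88 in every arm. In limma's interaction test the untreated 14-day difference was smaller in size than the untreated 3-day one by 0.67 (SE 0.27, adjusted p = 0.605). It was smaller than the mean of the other 3 arms, of which 2 were treated, by 1.40 (SE 0.22, adjusted p = 0.0206). That test of the difference lost its call, with adjusted p from 0.0869 to 0.209, without knockout replicate 2 or 3 or wild-type replicate 1 or 2.

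Among the named lower genes were Hspb7, Pnrc2, Trim63, Xirp2, Necap2 and Cars. Hspb7, a small heat shock protein of heart and skeletal muscle, read 6.15, 6.47 and 6.09 in the knockout and 9.96, 10.07 and 10.02 in the wild type. Every knockout array lay more than 3 log2 units below every wild-type array, and the difference was -3.78 (SE 0.23, adjusted p = 9.24e-11). Xirp2, an actin-binding protein of the Z-disc region, read 9.68, 8.90 and 9.29 against 12.46, 12.42 and 12.56. All 3 knockout arrays lay well below the wild type, and the difference was -3.19 (SE 0.25, adjusted p = 1.30e-08). A second Xirp2 probe, detected on 1 array of each genotype, differed by -0.08. Myom3, a myomesin of the M-band, read 9.15, 8.23 and 8.97 against 10.38, 10.44 and 10.06, a difference of -1.51 (SE 0.29, adjusted p = 0.00999). The Myom3 call was lost without knockout replicate 2 or wild-type replicate 1 or 2, with adjusted p from 0.0609 to 0.127. A second Myom3 probe, detected on 2 knockout and 3 wild-type arrays, differed by -0.54. Ankrd1, a stress-responsive ankyrin repeat protein that binds titin, read 5.65, 5.94 and 5.69 against 6.66, 7.45 and 6.32. Its groups were separate but its wild-type arrays were spread, and the difference of -1.05 (SE 0.22, adjusted p = 0.0247) lost its call without knockout replicate 1 or 3 or wild-type replicate 1 or 2, with adjusted p from 0.0513 to 0.190.

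Outside the sarcomere, Pnrc2, a coactivator of nuclear receptors that also takes part in messenger RNA decay, read 4.95, 4.90 and 4.55 in the knockout and 8.31, 8.29 and 7.97 in the wild type. It was near the detection limit in the knockout, with 1 of 3 arrays not detected, and its difference was -3.39 (SE 0.18, adjusted p = 1.10e-11). Necap2, an adaptor protein of clathrin-mediated endocytosis, read 5.10, 5.66 and 5.57 against 7.73, 7.99 and 7.94 and was lower by -2.44 (SE 0.17, adjusted p = 1.24e-09). Cars, the cysteinyl-tRNA synthetase, read 5.17, 5.36 and 4.76 against 6.90, 6.97 and 6.44. Its difference of -1.67 (SE 0.29, adjusted p = 0.00346) missed the threshold without knockout replicate 3, at an adjusted p of 0.0541. The other Cars probes differed by 0.24 (detected on 3 knockout and 2 wild-type arrays) and -0.07 (detected on 1 array of each genotype). Rab6b, a Golgi GTPase, was not detected on any knockout array and was at least 2.29-fold lower there (adjusted p = 1.36e-05). In the same way Zmym6, a zinc finger protein, was at least 2.33-fold lower, Padi2, a peptidylarginine deiminase, at least 2.23-fold, and Eya3, a transcriptional coactivator with phosphatase activity, at least 2.05-fold. That bound is for the brightest Eya3 probe, and another, detected on 2 knockout and 3 wild-type arrays, differed by -0.17. Gpn2, a GTPase, was lower by -1.40, Bsdc1 by -1.35, and Zfp131, a zinc finger transcription factor, by -1.25, with adjusted p from 2.72e-05 to 5.77e-05. Kcnma1, the large-conductance calcium-activated potassium channel, averaged 6.57 ± 0.61 in the knockout and 7.78 ± 0.14 in the wild type (SD, n = 3). Its difference of -1.22 (adjusted p = 0.0417) lost its call when any of knockout replicates 2 and 3 or any wild-type array was left out, with adjusted p from 0.0937 to 0.349. The other Kcnma1 probes differed by -0.32 (detected on 3 arrays of each genotype) and 0.20 (detected on 2 of each).

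The gene with the largest positive difference was Erdr1, a secreted factor first described in erythroid cells, whose wild-type arrays disagreed. It read 8.56, 10.05 and 9.67 in the knockout and 4.33, 4.24 and 7.30 in the wild type, where only replicate 3 was detected. The difference was 4.13 (SE 0.71, adjusted p = 0.00321), a second Erdr1 probe differed by 1.53 and was also called, and without wild-type replicate 2 the adjusted p was 0.0512. Hyi, a hydroxypyruvate isomerase, was tight in both groups, at 8.21, 8.24 and 8.10 against 5.84, 5.62 and 5.92, and was higher by 2.39 (SE 0.22, adjusted p = 1.97e-07). Rbp7, a cellular retinol-binding protein, read 6.12, 5.60 and 6.50 in the knockout, was not detected on any wild-type array, and was at least 2.55-fold higher (adjusted p = 2.05e-06). That bound is for the brightest Rbp7 probe, and another, detected on 2 knockout arrays and 1 wild-type array, differed by 0.15. Paip1, which binds poly(A)-binding protein and promotes translation, read 8.40, 8.84 and 8.62 against 6.71, 7.19 and 6.74 and was higher by 1.74 (SE 0.15, adjusted p = 9.33e-08). Itgb3bp, a centromere protein, was higher by 1.55, and Cap1, which regulates actin turnover, by 1.42, with adjusted p of 0.000247 and 0.000563. Haus1, a subunit of the augmin complex of the spindle, was not detected in the wild type and was at least 2.12-fold higher (adjusted p = 2.72e-05). Rab4a, a GTPase of recycling endosomes, was higher by 1.00 (adjusted p = 0.000781). With median scaling of the arrays in place of quantile normalization, Rab4a had an adjusted p of 0.0771, as had Cars, and Bsdc1 and Zfp131 had 0.0569 and 0.106, so these 4 calls depend on that step.

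Smaller positive differences were less stable. Ifi30, a lysosomal thiol reductase of antigen processing, was higher by 0.98, and Ica1, a protein of secretory granules, by 0.94, with adjusted p of 0.0132 and 0.0262. Kcnab1, an auxiliary subunit of potassium channels, was at least 1.66-fold higher (adjusted p = 0.0194). Each of these lost its call without knockout replicate 2 or 3 and without wild-type replicate 2. Wild-type replicate 1 did the same for Ifi30 and wild-type replicate 3 for Ica1 and Kcnab1, and the adjusted p then ran from 0.0778 to 0.210 over the 3 genes. With median scaling all 3 also lost their call, with adjusted p from 0.0760 to 0.0809.

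The extremes of the comparison were probes that carry no gene symbol in the annotation. Probe ILMN_2417556 read 10.86, 10.53 and 10.43 in the knockout and 4.83, 4.37 and 4.41 in the wild type, a difference of 6.07 (SE 0.23, adjusted p = 1.87e-14). Probe ILMN_1215654 was not detected in the knockout, read 9.83, 10.71 and 9.80 in the wild type and was at least 41.9-fold lower in the knockout (adjusted p = 1.98e-13). Of the 13 unnamed probes 12 also passed in the mean of the other 3 arms. The last 13 named calls, listed after their values were seen so that each call is accounted for, differed by -1.10 (Zfp933) to 0.91 (Gtpbp3). They comprise Zfp933, Spon2, Gatad2a, Ube4b, Agtrap, Clstn1, Mkrn1 and 4833420G17Rik, which were lower, and Dpm2, Rnaseh2b, Hdhd2, Fggy and Gtpbp3, which were higher. Among them Ube4b extends ubiquitin chains, Mkrn1 is a ubiquitin ligase, Spon2 is a matrix protein, Rnaseh2b is a subunit of ribonuclease H2 and Gtpbp3 modifies mitochondrial transfer RNA. Of the 13, Zfp933 and Ube4b kept their calls whichever array was left out, and Ube4b lost its call with median scaling alone, at an adjusted p of 0.628. The others lost theirs without at least 4 of the arrays tried, with adjusted p from 0.0509 to 0.338.

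**Figure D2:**
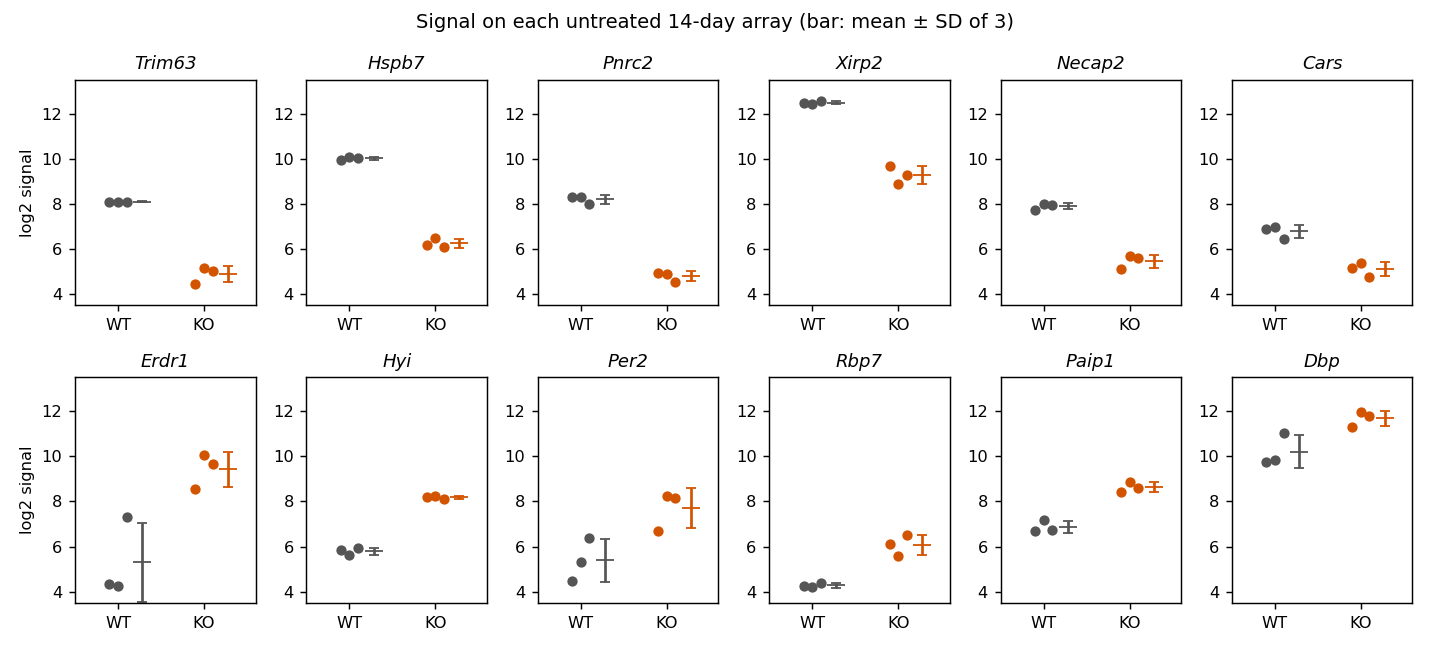
Log2 signal of 12 called genes on the 3 wild-type (grey) and 3 knockout (orange) arrays of the untreated 14-day arm. Points are arrays and the mark to the right of each group is the mean with the SD of 3 arrays. The groups do not overlap for any of the 12 genes, and the wild-type arrays are widest for Erdr1, from 4.24 to 7.30.

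The other 3 arms gave the same contrast on 18 other arrays. These arrays share with the untreated 14-day arm the estimate of the spread, the quantile normalization, the detection filter and the choice of probe, but their values do not enter the difference that chose the 57 features. With the 6 arrays normalized and fitted alone, 34 of the 57 passed. Of the 57, 44 passed the threshold in the same direction in the mean of those arms, 14 higher and 30 lower, where 2.34% of all features passed, 1.19% higher and 1.15% lower. No feature passed it in the opposite direction. In single arms 32 of the 57 passed in the same direction in the untreated 3-day arm, where 0.326% of all features were called, 34 in the 3-day dexamethasone arm (0.517%) and 31 in the 14-day dexamethasone arm (0.603%). In all 4 arms 28 were called. The differences of Hspb7 in the other arms were -3.83, -3.77 and -3.73, those of Pnrc2 -3.21, -3.70 and -3.40, and those of Paip1 1.71, 1.83 and 1.62. The untreated 14-day values of these 3 genes lay within or close to those ranges.

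Not past the threshold in the mean of the other arms were 13 features, of which 9 named genes were higher and 3 lower in the untreated 14-day arm. The higher ones were Per2, Dbp, Ciart, Kcnab1, Usp2, Ica1, Fggy, Rnaseh2b and Dpm2, and the lower ones were Kcnma1, Ankrd1 and Spon2. A miss there does not show that they were the same in both genotypes. When the difference between arms was itself tested, 0 features differed between the untreated 14-day and 3-day arms in limma's interaction test, with a smallest adjusted p of 0.0968 and 1216 features at an unadjusted p under 0.05. Against the mean of the other 3 arms 2 features (0.0123%) differed, Ciart and Trim63, with 1018 at an unadjusted p under 0.05.

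**Figure D3:**
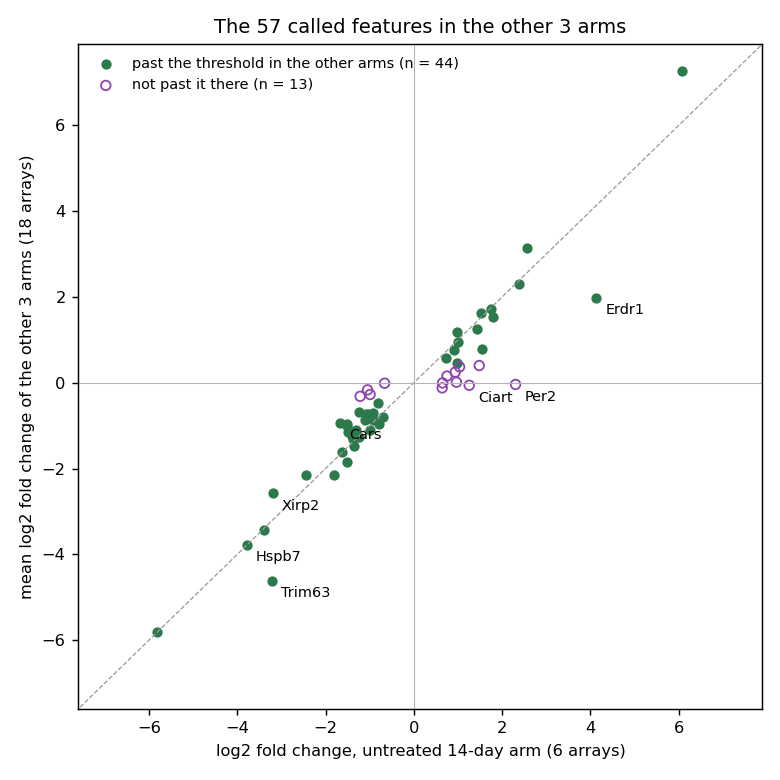
The 57 features called in the untreated 14-day arm, with their log2 fold change there on the x axis and the mean log2 fold change of the other 3 arms on the y axis. Filled points (44) passed the threshold in the other arms and open points (13) did not. Most filled points lie near the dashed line of equal values, while Per2 and Ciart lie near 0 on the y axis and Trim63 lies below the line.

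Genes of the circadian clock made up part of that second group. The clock is a feedback loop in which ARNTL and CLOCK activate the Per and Cry genes through E-box elements, PER and CRY proteins repress that activation, and output factors such as DBP and TEF act through D-boxes. Skeletal muscle runs such a clock, and its transcripts rise and fall over the day. Of 14 measured clock genes 3 were higher in the knockout (Per2, Ciart and Dbp) and 0 were lower, against 0.351% of all features called. The median difference over the 14 genes was 0.34, beside 0.02 over all features, and over the same genes in the other 3 arms it was 0.03.

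Per2, a repressor of the loop, read 6.68, 8.26 and 8.15 in the knockout and 4.46, 5.32 and 6.38 in the wild type. Both groups were spread widely, with the lowest knockout array just above the highest wild-type array, and the difference was 2.31 (SE 0.39, adjusted p = 0.00290). With the 6 arrays fitted alone its adjusted p was 0.143. Ciart, a repressor of CLOCK and ARNTL also called CHRONO, read 5.81, 6.27 and 6.31 against 4.83, 4.91 and 4.88, a difference of 1.26 (SE 0.19, adjusted p = 0.000653). The wild-type arrays were tight and all knockout arrays stood above them. Dbp, a PAR-domain transcription factor, read 11.32, 11.95 and 11.80 against 9.76, 9.82 and 11.04, with wild-type replicate 3 close to the knockout. Its difference of 1.48 (SE 0.30, adjusted p = 0.0192) lost its call without knockout replicate 2 or 3 or wild-type replicate 1 or 2, with adjusted p from 0.126 to 0.177. Usp2, a deubiquitinase whose transcript cycles in many tissues and which was not on the clock list, read 9.66, 10.44 and 10.03 against 8.97, 9.17 and 9.10. The difference was 0.97 (SE 0.20, adjusted p = 0.0262), and the call was lost when any array of the 6 other than knockout replicate 1 was left out, with adjusted p from 0.0722 to 0.257. With median scaling the adjusted p of Usp2 was 0.251.

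The other 11 clock genes did not pass. Per3 differed by 0.82, Per1 by 1.09, Cry2 by 0.61 and Tef by 0.48. The activator Arntl differed by -0.89, and Nr1d2 and Nr1d1, nuclear receptors that repress Arntl, by -0.74 and -0.56, with adjusted p from 0.216 to 0.354 for these 7 genes. Clock, Npas2, Rora and Bhlhe40 differed by -0.09, -0.22, 0.21 and 0.16. The arrays did not overlap in the upward direction for 6 of the 14 genes and in the downward direction for 2, where 8.62% and 5.25% of all features were. Without knockout replicate 1 the same 3 clock genes were called, and without wild-type replicate 2 Per2 and Ciart were.

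Levels of Per2, Ciart and Usp2 in the 14-day knockout lay near those of the untreated 3-day mice, and the 14-day wild type lay below. Per2 averaged 7.84 ± 0.08 (SD, n = 3) in the 3-day wild type, 7.76 ± 0.29 in the 3-day knockout and 7.69 ± 0.88 in the 14-day knockout, and 5.39 ± 0.97 in the 14-day wild type. Ciart averaged 6.46 ± 0.15, 6.14 ± 0.19 and 6.13 ± 0.28 in the first 3 of those groups and 4.87 ± 0.04 in the 14-day wild type. Usp2 averaged 10.47 ± 0.19, 10.18 ± 0.34 and 10.05 ± 0.39 against 9.08 ± 0.10. Under dexamethasone, Ciart in wild type and knockout averaged 4.87 and 4.82 at 3 days and 4.67 and 4.87 at 14 days. In the same order Per2 averaged 6.29, 6.39, 5.52 and 5.38, and Usp2 averaged 9.82, 9.92, 9.02 and 9.25. Dbp averaged 8.19, 8.48, 6.82 and 8.01 in that order. Its genotype difference after 14 days of dexamethasone was 1.19 (adjusted p = 0.0719), which did not pass. The genotype differences in the untreated 3-day arm were -0.07 for Per2, -0.32 for Ciart, -0.28 for Dbp and -0.29 for Usp2. Against that arm alone, limma's interaction test gave 1.58 for Ciart (SE 0.27, adjusted p = 0.0968), which did not pass. The tested difference between the untreated 14-day arm and the mean of the other 3 arms was 1.31 for Ciart (SE 0.22, adjusted p = 0.0371). It missed the threshold when any array of the 6 other than knockout replicate 1 was left out, with adjusted p from 0.0533 to 0.377. For Per2 it was 2.34 (SE 0.45, adjusted p = 0.167), for Dbp 1.08 (adjusted p = 0.614) and for Usp2 0.95 (adjusted p = 0.345). Since the hour of harvest is not in the labels, a genotype difference in these genes and a difference in sampling time between the groups cannot be told apart.

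**Figure D4:**
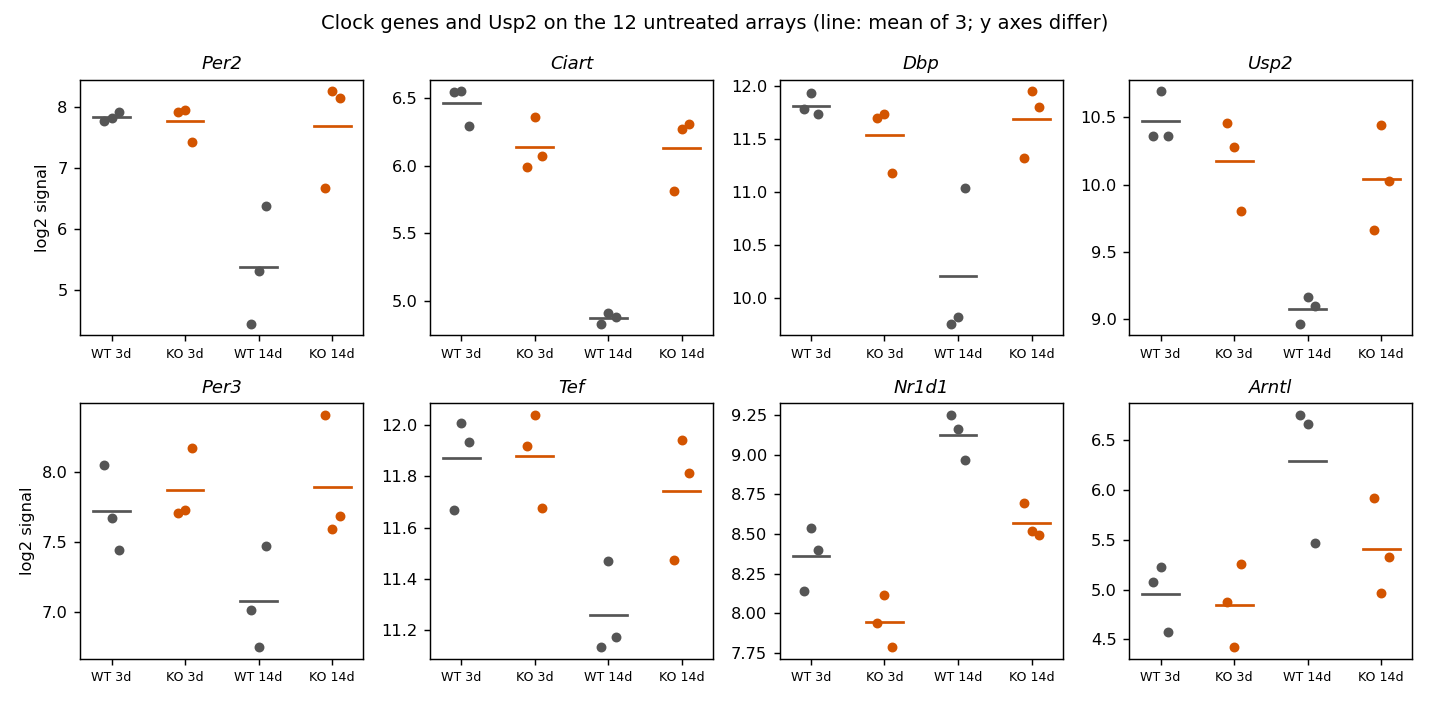
Log2 signal of 7 clock genes and Usp2 on the 12 untreated arrays, with wild type in grey, knockout in orange and the mean of 3 arrays as a line. Scales differ between panels. In the 14-day wild type Per2, Ciart and Usp2 average 5.39, 4.87 and 9.08, below the averages of the other 3 groups, while Nr1d1 and Arntl average highest there.

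Promoter sequence was available for Ciart, Dbp and Usp2 in RefSeq promoter windows of GRCm38.p6, which run from 250 bases before to 50 after the start of each gene. The windows of the called clock gene with E-boxes and of 1 without are shown because these genes were higher together. Capitals mark the E-box CACGTG, which reads the same on both strands.
Ciart (chr3:95882179-95882478, minus strand): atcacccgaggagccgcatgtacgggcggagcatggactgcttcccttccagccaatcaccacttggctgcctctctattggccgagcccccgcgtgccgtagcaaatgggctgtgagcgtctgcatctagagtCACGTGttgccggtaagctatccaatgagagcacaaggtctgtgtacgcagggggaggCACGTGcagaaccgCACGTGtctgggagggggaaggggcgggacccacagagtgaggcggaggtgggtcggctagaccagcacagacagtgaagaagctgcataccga
Dbp (chr7:45704997-45705296, plus strand): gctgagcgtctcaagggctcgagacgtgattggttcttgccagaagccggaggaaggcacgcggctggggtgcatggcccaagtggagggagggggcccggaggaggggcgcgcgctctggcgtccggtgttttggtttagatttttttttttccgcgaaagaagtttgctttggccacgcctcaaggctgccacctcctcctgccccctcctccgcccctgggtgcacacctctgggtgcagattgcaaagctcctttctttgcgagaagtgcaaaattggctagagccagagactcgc
The Ciart window held 3 E-boxes, and those of Dbp and Usp2 held 0. Of all 32851 windows 7.15% held the E-box, as did 8.09% of the 27025 genes they belong to. Of the 34 called genes matched to a window 9 held it: Agtrap, Ciart, Dpm2, Ica1, Ifi30, Kcnab1, Ube4b, Zfp933 and Zmym6. The D-box TTATGTAA, or TTACATAA on the other strand, was in 0.938% of windows and in 0 of the 34 genes. A match is a string of letters and not a binding site, and its absence says only that these letters are not in this window.

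The called genes were unevenly placed along the genome. On chromosome 4, which carries Trim63, 19 of 649 measured genes were called (2.93%), 5 higher and 14 lower, while on all other chromosomes 25 of 10353 were (0.241%). In RefSeq gene order the 14 lower genes lay between Zmym6, 73 measured genes before Trim63, and Clstn1, 119 after it. They were Zmym6, Bsdc1, Eya3, Gpn2, Trim63, Myom3, Pnrc2, Padi2, Necap2, Hspb7, Zfp933, Agtrap, Ube4b and Clstn1. Hspb7, Pnrc2 and Trim63 had the largest negative differences among named genes in the genome, and all lie in that stretch. The 5 higher genes were Fggy, Itgb3bp, Hyi, Cap1 and Rbp7, of which Rbp7 lies next to Ube4b. Of the 19 genes 18 also passed in the mean of the other arms, Fggy being the exception. Without knockout replicate 1 the chromosome 4 count was 22, with 7 higher and 15 lower, and without wild-type replicate 2 it was 15, with 4 higher and 11 lower.

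With each gene read by its brightest probe, the nearest genes held no call. Of the 10 measured genes on each side of Trim63, 0 of 20 passed in the untreated 14-day arm (0.351% of all features did), while 6 of 20 passed in the mean of the other arms (2.34% of all features). When all 28 kept probes of these 20 genes were read, 1 passed, a second probe of Clic4, a chloride intracellular channel protein, at -0.99 (SE 0.17, adjusted p = 0.00408), while the other 3 Clic4 probes differed by -0.17, 0.33 and -0.19. A second probe of Mtfr1l, a mitochondrial protein, differed by -0.68 (adjusted p = 0.0546). Slc30a2, a zinc transporter and the next measured gene, was detected on 2 knockout arrays and on no wild-type array and was at least 1.49-fold higher in the knockout (adjusted p = 0.206) here, and its log2 difference in the other arms was 1.54. Cep85, a centrosomal protein, differed by -0.72 (adjusted p = 0.0816) here and by -0.58 there. By their brightest probes, 4 of 100 genes within 50 measured genes on each side were called, and 11 of 200 within 100 on each side, all lower. In littermates a knockout allele is inherited together with the chromosome around it, so position near Trim63 and loss of MuRF1 cannot be told apart in these groups.

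**Figure D5:**
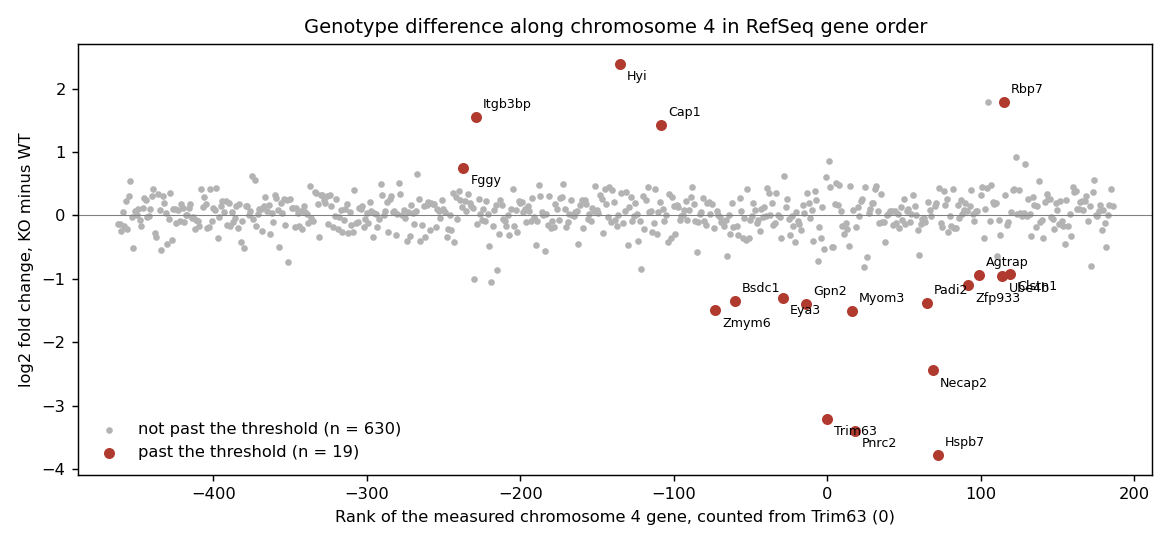
The 649 measured chromosome 4 genes in RefSeq order, with rank counted from Trim63 at 0 on the x axis and the log2 fold change of knockout minus wild type on the y axis. The 19 called genes are red. All 14 lower ones lie between ranks -73 and 119.

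Smaller groups of neighbours appeared elsewhere. On chromosome 13 Paip1 was higher and 4833420G17Rik, the next measured gene, was lower. Zfp131, with 3 measured genes between it and 4833420G17Rik, was also lower. On chromosome 18 Hdhd2 and Haus1, with 4 measured genes between them, were both higher. On chromosome 8 Gatad2a was lower, and Ifi30 and Gtpbp3 followed at higher levels, with 23 and 17 measured genes between neighbours. All 8 of these genes also passed in the mean of the other arms. Each probe reads a short stretch of a transcript, so a change in transcript level and a change of sequence under a probe cannot be told apart from 1 probe. Of the 44 called named genes 28 had a single kept probe and 16 had another, which passed in the same direction for 1 (Erdr1) and in the opposite direction for 0. Read in the other direction, 5 genes not called by their brightest probe had another probe that passed when all kept probes were tested. These were Clic4, Rbbp4 and Ptp4a2 on chromosome 4, Riok3 on chromosome 18 and Trio on chromosome 15.

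Among proteins of the thick filament, titin and the Z-disc, 3 of 19 measured genes were lower (Xirp2, Myom3 and Ankrd1), 0 were higher, and the list's median was -0.05, where 0.209% of all features were called as lower and 0.141% as higher. Without knockout replicate 1 the called ones were Xirp2 and Myom3, and without wild-type replicate 2 only Xirp2. Titin itself (Ttn) averaged 14.25 ± 0.08 in the knockout and 14.21 ± 0.10 in the wild type (SD, n = 3). Csrp3, the muscle LIM protein, differed by 0.65 (adjusted p = 0.174), and Tcap, which caps titin at the Z-disc, by 0.42 (adjusted p = 0.274). Of 22 measured genes for sarcomere proteins and reported MuRF1 substrates 0 passed, and their differences ran from -0.57 to 0.42. Among slow-fibre contractile genes 0 of 11 passed (median -0.20), with Tnni1, slow troponin I, at -0.57 and Myl2, slow regulatory light chain, at -0.24. Among fast-fibre genes 0 of 14 passed (median 0.07), with Myh4, the type IIB myosin, at -0.25. A second Myh4 probe, detected on 3 arrays of each genotype, differed by -0.81 (adjusted p = 0.200 over all kept probes).

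On the lists for protein degradation Trim63 was the single call, while Ube4b, Mkrn1 and Usp2, described above, are on none of them. Among 19 atrophy-linked ubiquitin ligases 0 others passed. Fbxo32, the ligase atrogin-1, read 8.94 ± 0.60 in the knockout and 9.20 ± 0.13 in the wild type, a difference of -0.26 (SE 0.23, adjusted p = 0.714). Trim54, the related MuRF3, differed by 0.24 (SE 0.16, adjusted p = 0.606). Of 40 measured proteasome genes 0 passed. Their median difference was 0.15, and the arrays were non-overlapping and higher in the knockout for 11 and lower for 0, where 8.62% and 5.25% of all features were. Psmb4, a core subunit, differed by 0.29 (adjusted p = 0.424), and Pomp, the proteasome assembly factor, by 0.33 (adjusted p = 0.377), and in the other 3 arms the list's median was 0.00. Of 27 autophagy and lysosome genes and 17 ubiquitin and E2 genes 0 passed.

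Metabolic lists held no call either. Of 60 genes of oxidative phosphorylation 0 passed, 52 had a difference above 0, the median was 0.16, and 9 were non-overlapping and higher (8.62% of all features were). Atp5c1 and Atp5g3, subunits of ATP synthase, differed by 0.38 and 0.41 (adjusted p = 0.216 and 0.241). Of 24 glycolytic and glycogen genes, 30 genes of fatty acid oxidation and lipid handling and 47 cytosolic ribosome genes 0 passed. Angptl4, an inhibitor of lipoprotein lipase, differed by -1.41 (adjusted p = 0.108), with its probe detected on 1 of 3 knockout arrays, and a second probe, detected on all 6 arrays, differed by -0.01. Igfbp3, which binds insulin-like growth factors, differed by -1.04 (adjusted p = 0.0831). Igfbp3 and the first Angptl4 probe were called as lower without knockout replicate 1. Hspb7 was the only called gene of 19 heat shock and chaperone genes, and its relatives Hspb1, Hspb6, Hspb8 and Cryab differed by -0.02, -0.18, 0.09 and 0.05. Of 30 glucocorticoid-responsive genes 0 passed (median 0.03).

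Signalling, stress and structural lists gave the same picture. Of 22 interferon and antigen presentation genes 0 passed (median 0.20), and 6 were non-overlapping and higher and 2 lower (8.62% and 5.25% of all features), with H2-Ab1, a class II antigen-presenting chain, at 0.60 (adjusted p = 0.377). Bst2, an interferon-induced antiviral protein, differed by -0.65 (adjusted p = 0.253) here and by -0.87 in the mean of the other arms, where it passed. Of 15 immediate early and injury genes only Ankrd1, named above, passed. Of 23 amino acid genes 0 passed (median 0.15), and Glul, glutamine synthetase, differed by 0.90 (adjusted p = 0.316). There were also 0 calls among 27 genes of oxidative stress and glutathione, 20 cytokines and chemokines, 40 extracellular matrix genes, 16 cell cycle genes, 24 genes of myostatin, activin and BMP signalling and 27 of insulin and mTOR signalling. The same was true of 17 genes of excitation-contraction coupling, 12 of the neuromuscular junction and 11 of the dystrophin complex. The medians of these 9 lists lay between -0.06 and 0.15. Without knockout replicate 1, Il15, a cytokine made by muscle, and Ier3, an immediate early gene, were called as higher.

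No member of the 13 lists for cell types and sex passed the threshold. Of 10 neutrophil markers 5 were measured. S100a8, one of them, read 4.51, 4.59 and 4.67 in the knockout and 5.62, 8.34 and 5.27 in the wild type. Wild-type replicate 2 stood above all others. S100a8 was not detected on any knockout array and was at least 3.22-fold lower there, which did not pass (adjusted p = 0.0891). The summed log2 level of the 5 markers ran from 6.79 to 6.90 in the knockout and from 7.17 to 9.19 in the wild type. The part of these cells in the called genes was not tested beyond leaving out that array, which gave 39 calls, with 20 of the 57 lost. Without knockout replicate 1, 2 or 3 the calls lost numbered 3, 20 and 23. Without wild-type replicate 1 or 3 they numbered 18 and 15. Fewer cells of a type and less RNA per cell cannot be told apart in whole muscle. The macrophage list had a median of 0.24 (0 of 12 called, 11 of 12 above 0) and summed levels of 10.9 to 11.3 in the knockout and 10.6 to 11.3 in the wild type. The tendon list had a median of 0.34 (0 of 9 called, 7 of 9 above 0) with summed levels of 11.3 to 12.1 and 10.7 to 11.9. The list for smooth muscle and pericytes had a median of -0.22 (0 of 12 called, 3 of 12 above 0), and its summed levels did not overlap, at 11.69 to 11.76 in the knockout and 11.82 to 11.94 in the wild type. Of its 12 members 1 was non-overlapping and higher and 1 lower, where 8.62% and 5.25% of all features were. The part of these cells in the called genes was not tested. The other 9 lists had medians between -0.30 and 0.06.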

How the data were processed

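Total RNA was labelled as biotinylated cRNA for Illumina mouse beadchips, per the labels' protocols. Software listed per the submitters' processing notes was BeadStudio 3.2.3, with no role stated. A deposited table gave the average signal intensity of 46632 probes on each of 24 arrays, not normalized, per the file headers. Beside every intensity stood a detection p-value made by the authors, again per the file headers. A second table deposited by the authors held intensity values that were already background-subtracted and normalized, as the values show, and served as an alternative with a floor at 16. Replicate numbers are those of the first table and differ in the second for 5 groups. Columns without a sample numbered 0.

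The neqc function of limma 3.58.1 (R 4.3.3) used the detection p-values to correct intensities for background, quantile-normalized them and took log2 after an offset of 16. Probes detected at p under 0.05 on at least 3 of 24 arrays were kept (20769). The platform annotation gave 1 symbol for 29976 probes, several for 10 and none for 16646. The probe of highest mean signal represented each gene, leaving 16262 features, 11010 of them named genes. limma fitted 8 group means (16 residual degrees of freedom) with moderated standard errors. Knockout was compared with wild type in the untreated 14-day arm, in each other arm and in their mean, and interaction terms tested differences between arms. Adjustment of p was by Benjamini-Hochberg over all features, with a threshold of 0.05, and every adjusted p comes from limma. Log2 fold changes are knockout minus wild type, SE is their standard error, and ± gives the SD. If a probe was undetected on all arrays of its dimmer group, the fold is given as a lower bound against the higher, on each array, of the dimmest detected signal and the probe's own. The number of arrays limits the precision. On simulated data of 16262 genes for this comparison, 82% of 100 genes changed 2-fold and 30% of 100 changed 1.5-fold were recovered, with 5 false calls. The simulated noise was independent between arrays, its SDs were shuffled between genes, and the full shift was added at any signal level. These shares therefore do not cover effects shared across an array or signals near background.

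RefSeq GRCm38.p6 supplied gene order, chromosomes and promoter windows. Of the named genes 11002 were placed on a chromosome. The naming rule took Trim63, the 15 genes per direction of largest difference among calls without overlap, the 10 measured genes on each side of Trim63, and from each of 41 gene lists the called members or a few by signal and p. The comparison, the lists and the tests were chosen with earlier results of these data known. Alternatives were the authors' value table, another background correction, scaling, offset, filters, every probe singly, subsets of arrays, an intensity trend, array weights, a replicate block, and leaving out arrays in turn. Same-numbered knockout and wild-type arrays correlated in their deviations from the group mean at 0.140, 0.046 and 0.019, and with the value table's numbers at -0.064, -0.121 and 0.056, so the numbers were not taken as pairs.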

Additional observations from a re-analysis of the deposited data

Results flagged for a closer look

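The genotype effect of Ciart differed between the untreated 14-day arm and the mean of the other 3 arms by a log2 value of 1.3133 (SE 0.22, limma interaction, adjusted p = 0.0371), with all 3 knockout arrays above all 3 wild-type arrays in the untreated 14-day arm. Against the untreated 3-day arm alone the Ciart difference was 1.58 (adjusted p = 0.0968), which did not pass. The genotype effect of Trim63 differed from the mean of the other 3 arms, in the same limma interaction, by 1.4047 (SE 0.22, adjusted p = 0.0206). It was less negative in the untreated 14-day arm, while wild-type Trim63 averaged 9.63 and 9.72 in the dexamethasone arms and 8.09 here. Against the untreated 3-day arm alone the difference was 0.67 (adjusted p = 0.605). Dpm2, a subunit of dolichol-phosphate mannose synthase, was higher by 0.64 on all 3 knockout arrays of the untreated 14-day arm (adjusted p = 0.0262). It read lower on all 3 knockout arrays of the untreated 3-day arm, by -0.21291, and of the 3-day dexamethasone arm, by -0.30687. The difference of Dpm2 from the untreated 3-day arm had an adjusted p of 0.235 and that from the mean of the other 3 arms 0.196, and its difference from the 3-day dexamethasone arm alone was not tested.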

How the results depend on the processing

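Over 21 alternatives no called feature changed sign, 24 of the 57 kept their call under all of them and 33 lost it under at least 1. The count of 57 was 30 with median scaling, 34 with the 6 arrays fitted alone and 2681 with array weights, where knockout replicates 1 and 3 had weights of 0.30 and 4.81. It was 49 with the 12 untreated arrays, and between 50 and 70 under the other alternatives that kept all 24 arrays. Leaving out 1 array gave 35 to 159 calls, the lowest without knockout replicate 3, the highest without knockout replicate 1, and 87 without knockout replicate 3 of the 3-day dexamethasone group. The share of higher features among the calls was 40.4% and became 29.4% with the 6 arrays alone and 52.2% with array weights. Apart from arrays left out, Myom3, Dbp, Usp2, Kcnab1 and Kcnma1 lost their call with the authors' value table and with no filter, among other settings. Ankrd1 lost its call under 6 such alternatives. These were no filter, median scaling, an offset of 50, another background correction with that offset, the 6 arrays alone and the 12 untreated arrays. Differences from the untreated 3-day arm numbered 0 and became 5 with the authors' value table and 0 to 4 when 1 array was left out. Differences from the mean of the other 3 arms numbered 2 and became 7 with the value table, 0 with no filter, and 0 to 6 when 1 array was left out. The count of 381 in the mean of the other 3 arms ran from 323 to 511. A replicate block gave 60 calls, 55 of them shared with the 57, 412 in the mean of the other arms, and 1 and 3 differences from the 3-day arm and from the other arms. A block with the value table's numbers, added after the data were seen, gave 70, 511, 0 and 1. The causes of these shifts were not tested. Signal over background limits the 14 calls whose lower group was not detected on any array, for which only a bound is given.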
